A study of Homo sapiens with 9 samples.

Results

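The MYC, MAX and MXD network was followed through 3 lines of human colon cancer cells. The network is taken here as the 10 genes MYC, MYCN, MYCL, MAX, MXD1, MXD3, MXD4, MXI1, MNT and MGA, chosen by name as the MYC family and its MAX-binding partners and antagonists, out of 63677 genes counted. All 10 had a count in the files under their Ensembl identifier, and all 10 passed the filter on low counts in each of the 3 comparisons. MYCN passed it against SW480 only because of its counts in SW480.

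Proteins of the network share a basic helix-loop-helix leucine zipper, with which they pair and bind a short DNA element called the E-box, CACGTG. MYC, MYCN and MYCL pair with MAX and activate genes of growth, nucleotide synthesis and ribosome formation. The MXD proteins, MXI1, MNT and MGA compete for the same MAX, and most of them bring in a SIN3 and histone deacetylase corepressor, whereas MGA belongs to a Polycomb complex. In colon cancer with active WNT signalling, MYC is a well-known target of β-catenin and TCF.

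SW480 is an established line from a human colon adenocarcinoma and was sequenced as the parental cells, without a vector. SW480-B cells carry the BASP1 coding sequence under a cytomegalovirus promoter, were selected with geneticin and descend from a single-cell clone. In SW480-gRNA-B-all cells the endogenous BASP1 gene was switched on by pooled sgRNAs to its promoter, introduced with puromycin selection into a single-cell clone that carried MS2-P65-HSF1 (hygromycin selection) and dCas9-VP64. BASP1 is a neuronal signalling protein and transcriptional corepressor, and the comparisons ask how the network's transcripts differ between BASP1-expressing cells and the parental line. Each line is represented by 3 libraries of poly(A) RNA, not stated to come from separate cultures, so that p-values measure the spread between these libraries, which may be technical. Neither BASP1-expressing line has a vector or activator control here, so that BASP1 and clone, vector or selection cannot be told apart.

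Levels are given as CPM, that is, counts scaled to library size, and the libraries held between 25238831 and 29355669 counts on genes. BASP1 had between 0.691 and 11.9 CPM in SW480, between 250.3 and 268 in SW480-B and 167 to 303 CPM in SW480-gRNA-B-all. Replicates 2 and 3 of SW480-gRNA-B-all were unusually alike: 0.421% of genes differed more than 2-fold between them, whereas 8.38% to 27.7% did so in every remaining pair within a line. Their median chi-square per gene was 0.882 where sampling alone gives 0.455, and 9.24 to 30.4 in the remaining pairs within a line. This cannot tell whether they are separate samples, as repeated libraries of the same RNA could also exceed sampling. Both were kept, and for the members and gene lists, fits with both summed are also given. SW480 replicates 1 and 3 were the least alike pair, at the upper end of that range. Of colon epithelium markers, summed levels were 8328 to 10970 CPM in SW480, 6991 to 11360 in SW480-B and 6331 to 7805 in SW480-gRNA-B-all. All 10 had counts in SW480 and 9 of 10 in each BASP1-expressing line, where CDH17 was at 0 in every library. The 10 matched markers of fibroblast, blood and endothelial cells summed to between 4.56 and 12.7 CPM, with COL3A1 at 0 and CD68 at most 0.0353 CPM throughout. Of the 3 that could be tested against SW480, COL1A1 was higher and LUM lower in SW480-gRNA-B-all, and LUM was lower in SW480-B. Of all genes, 7.8% and 1.34% were called in these 2 comparisons.

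The regions upstream of 4 members are shown because 2 of them, MYCN and MYCL, were the members that passed the test, and the other two, MXD3 and MXD4, were the antagonists that varied most between the SW480 libraries. Each is the 250 bases before the RefSeq start on GRCh38.p14, read 5′ to 3′ on the gene's strand. Capitals mark an E-box, CACGTG, or the core of the TCF element, CTTTGA, found on either strand (TCAAAG is that core on the other strand). The windows are MYCN at chr2:15940300-15940549 (plus strand), MYCL at chr1:39901918-39902167 (minus), MXD3 at chr5:177312753-177313002 (minus) and MXD4 at chr4:2262110-2262359 (minus).
MYCN: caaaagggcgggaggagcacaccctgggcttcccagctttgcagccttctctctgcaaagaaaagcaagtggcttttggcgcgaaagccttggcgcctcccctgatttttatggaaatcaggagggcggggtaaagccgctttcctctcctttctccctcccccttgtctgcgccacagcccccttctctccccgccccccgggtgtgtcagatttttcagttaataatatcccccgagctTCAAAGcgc
MYCL: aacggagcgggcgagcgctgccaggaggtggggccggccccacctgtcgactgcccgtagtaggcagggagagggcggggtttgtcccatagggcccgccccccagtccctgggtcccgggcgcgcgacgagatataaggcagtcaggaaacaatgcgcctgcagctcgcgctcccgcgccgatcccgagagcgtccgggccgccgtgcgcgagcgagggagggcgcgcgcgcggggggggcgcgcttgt
MXD3: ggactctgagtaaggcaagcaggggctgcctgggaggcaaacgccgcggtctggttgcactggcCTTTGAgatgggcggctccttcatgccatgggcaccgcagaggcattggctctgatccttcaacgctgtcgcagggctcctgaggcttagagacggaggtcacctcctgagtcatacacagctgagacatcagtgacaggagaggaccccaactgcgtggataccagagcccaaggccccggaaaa
MXD4: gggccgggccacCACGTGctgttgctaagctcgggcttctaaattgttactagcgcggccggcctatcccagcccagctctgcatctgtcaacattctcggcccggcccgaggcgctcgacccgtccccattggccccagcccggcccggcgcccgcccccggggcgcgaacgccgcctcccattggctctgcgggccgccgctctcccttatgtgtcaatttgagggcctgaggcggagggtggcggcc
The window of MYCN ended in a TCF core that began 9 bases before the start, and that of MXD3 held 1 core 186 bases before it. An E-box lay 238 bases before the start of MXD4, and MYCL had neither element. MNT, not printed, had an E-box 193 bases before its start, and no window of MXD1, MAX, MXI1 or MGA held either. MYC was not among the genes searched. Among 35114 windows of 250 bases, 6.35% held the E-box and 11.2% the TCF core. The GC box GGGCGG, searched on both strands, was in all 4 printed windows and in 42.6% of all windows. These matches describe letters and were not tested for binding.

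Between SW480-gRNA-B-all and SW480, 2 of 10 members passed the test (edgeR, adjusted p under 0.05), both lower, and 7.8% of 16100 genes tested did so in either direction (5.52% lower). Both also passed the 2-fold limit, as did 6.55% of all genes. Of these members, MYCN passed the filter on low counts only through SW480, so that only a fall could be found for it. The median log2 fold change of the 10 members was -0.86, against -0.05 over all genes tested, and 8 of 10 were below 0. In SW480-B against SW480, no member passed, where 1.34% of 16106 genes did. There, 2 members had an unadjusted p under 0.05 (15.8% of all genes) and 2 passed in DESeq2 (5.62% of all genes). In SW480-gRNA-B-all against SW480-B, no member passed, where 8.76% of 15846 genes did, with 3 members at an unadjusted p under 0.05 (24.4% of all genes) and 2 passing in DESeq2 (12.2% of all genes). The first and second comparison share the SW480 libraries and are given side by side. At an unadjusted p under 0.05, the first comparison had 4 members (28.4% of all genes), and DESeq2 called 4 (15.6%). Of 10 members, the lines did not overlap for 3, 2 and 3 in the 3 comparisons, beside 38%, 22.4% and 30.4% of all genes tested.

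**Figure D1:**
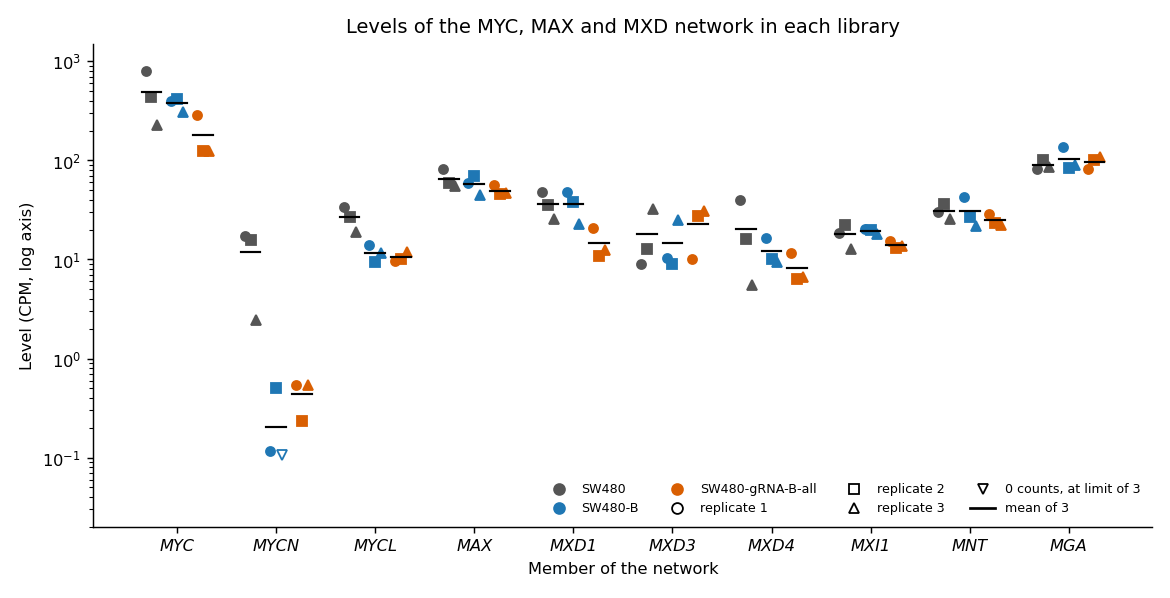
Level of each member in CPM (log axis) in the 9 libraries, coloured by line, with the shape giving the replicate and a bar the mean of 3. An open triangle is a library with 0 counts, drawn at the limit of 3 counts. MYCN stood between 2.47 and 17.4 CPM in SW480 and at most at 0.542 CPM in all 6 BASP1-expressing libraries, while MYC in SW480 spread from 228 to 800.

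MYC (ENSG00000136997, chr8:128747680-128755197 on GRCh37, plus strand), the main oncogene of the family in colon cancer, had 800 CPM, 437 CPM and 228 CPM in SW480 replicates 1, 2 and 3. In SW480-B it had 401, 421 and 309 CPM, and in SW480-gRNA-B-all 289, 125 and 125 CPM. SW480 replicate 3 lay below every SW480-B library and below SW480-gRNA-B-all replicate 1, so that both BASP1-expressing lines overlapped with SW480, whereas they did not overlap with each other. The mean was 488 ± 289 in SW480, 377 ± 59.7 in SW480-B and 179 ± 94.5 in SW480-gRNA-B-all (SD, n = 3).

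MYC did not pass in SW480-gRNA-B-all against SW480 (log2 fold change -1.45, SE 0.531, edgeR adjusted p = 0.133). It passed without SW480 replicate 3 (log2 fold change -1.76, edgeR adjusted p = 0.0456) and in DESeq2 (adjusted p = 0.0402), and over all libraries left out in turn its log2 fold change ran from -1.96 to -0.89. With SW480-gRNA-B-all replicates 2 and 3 summed it was -1.23 (edgeR adjusted p = 0.333). In SW480-B the log2 fold change of MYC was -0.34 (SE 0.421, edgeR adjusted p = 0.732) and turned to 0.21 without SW480 replicate 1. The difference between the BASP1-expressing lines was -1.07 (SE 0.338, edgeR adjusted p = 0.0924). That call changed without the filter on low counts (0.0378), in DESeq2 (0.0174) and without SW480-gRNA-B-all replicate 1 (0.00906). The last fit keeps only the alike replicates 2 and 3 of that line. With both summed, MYC did not pass (log2 fold change -0.85, edgeR adjusted p = 0.301). CASC11 (ENSG00000249375), a long noncoding RNA that overlaps MYC on the other strand, had 0.837 to 3.65 CPM in SW480 and 0.367 to 1.18 CPM in the other lines.

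MYCN (ENSG00000134323, chr2:16080672-16087129, plus strand), the paralogue best known from neuroblastoma, had 17.4, 15.8 and 2.47 CPM in SW480. It had 0.116, 0.499 and 0 CPM in SW480-B, the last of which allows up to 0.106 CPM (3 counts, counting error only), and 0.542, 0.234 and 0.534 CPM in SW480-gRNA-B-all. Every BASP1-expressing library was below every SW480 library, and SW480 replicate 3 stood nearer to them than to the other SW480 libraries. In counts, MYCN had 1031 in the 3 SW480 libraries together, 17 in SW480-B and 39 in SW480-gRNA-B-all.

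MYCN fell in SW480-gRNA-B-all against SW480 by 4.76 on the log2 scale (SE 0.821, edgeR adjusted p = 0.0237). It passed the filter on low counts only through SW480, so that only a fall could be found in the comparisons with that line. In SW480-B against SW480 its log2 fold change was -5.80 (SE 1.13, edgeR adjusted p = 0.0543). By the check given with the processing, same-numbered libraries of these lines were alike, although what the numbers mark is not stated. With the number as a block the value was -6.03 and passed (edgeR adjusted p = 0.0106). The value also passed in DESeq2 (0.00237) and without SW480 replicate 3 (0.00561). The BASP1-expressing lines did not differ past the threshold in MYCN (log2 fold change 1.07, SE 0.907, edgeR adjusted p = 0.514). MYCNOS, the antisense RNA of MYCN, had at most 0.241 CPM in any library.

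MYCL (ENSG00000116990, chr1:40361100-40367928, minus strand), the paralogue first known from lung cancer, had 34.3, 27.2 and 18.8 CPM in SW480. It had 13.9, 9.48 and 11.6 CPM in SW480-B and 9.55, 10.2 and 11.8 CPM in SW480-gRNA-B-all. No library of either BASP1-expressing line reached the lowest SW480 library, and the BASP1-expressing lines overlapped with each other.

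MYCL fell in SW480-gRNA-B-all against SW480 by 1.35 on the log2 scale (SE 0.262, edgeR adjusted p = 0.0306). In SW480-B against SW480 its log2 fold change was -1.16 (SE 0.307) and did not pass (edgeR adjusted p = 0.133, with the block 0.0937), although it did in DESeq2 (0.0167). Between the BASP1-expressing lines the log2 fold change of MYCL was -0.15 (SE 0.227, edgeR adjusted p = 0.721). The antisense MYCL-AS1 had at most 0.232 CPM.

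The 2 calls in SW480-gRNA-B-all depended on single libraries. Neither MYCN nor MYCL passed without SW480 replicate 2, without any 1 of the SW480-gRNA-B-all replicates, or with SW480-gRNA-B-all replicates 2 and 3 summed (0.0925 for MYCN and 0.117 for MYCL), while the log2 fold changes with 1 library left out stayed between -5.22 and -4.39 for MYCN and between -1.52 and -1.13 for MYCL. Genes called in all fell in the same fits from 1256 to between 8 and 178.

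MAX (ENSG00000125952, chr14:65472892-65569413, minus strand), the common partner of the network, had 82.1, 59.2 and 55.8 CPM in SW480, 59.3, 69.9 and 44.6 in SW480-B and 56.0, 46.1 and 47.0 in SW480-gRNA-B-all. These ranges overlapped in every comparison. The log2 fold change of MAX was -0.41 (SE 0.198, edgeR adjusted p = 0.223) in SW480-gRNA-B-all and -0.15 (SE 0.248, edgeR adjusted p = 0.806) in SW480-B, both against SW480, and -0.22 (SE 0.197, edgeR adjusted p = 0.535) between the BASP1-expressing lines. FNTB, which overlaps MAX on the other strand, had 5.22 to 12.0 CPM.

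**Figure D2:**
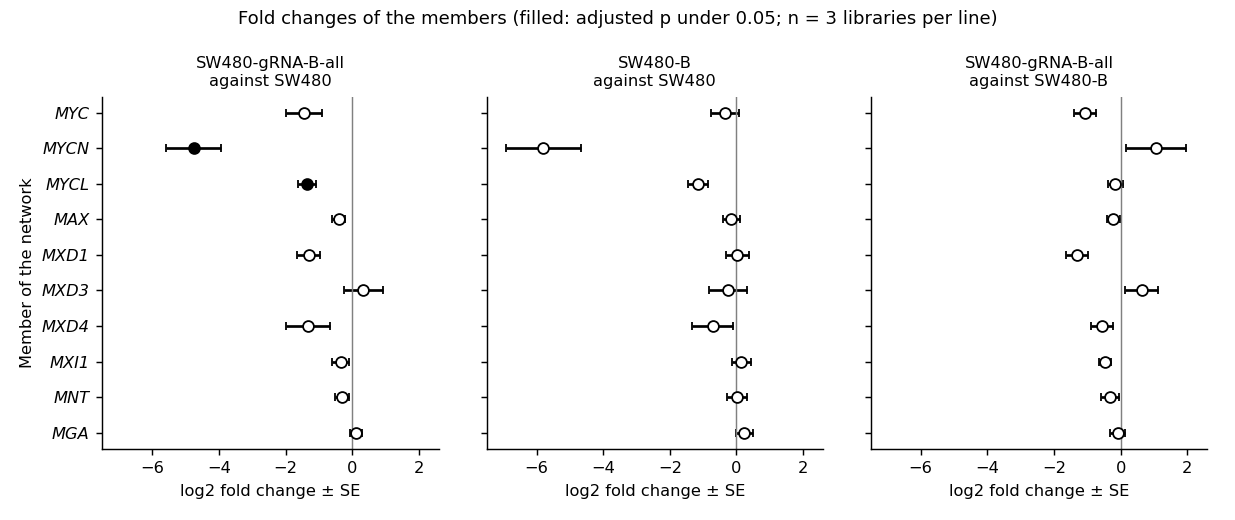
The log2 fold change of each member with its standard error in the 3 comparisons (n = 3 libraries per line), with filled points for an edgeR adjusted p under 0.05. MYCN at -4.76 and MYCL at -1.35 are the filled points, and the interval of MYCN in SW480-B lies further from 0 with a wider error.

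Among the antagonists, MXD1 (ENSG00000059728, chr2:70124820-70170077, plus strand), a partner of MAX known from differentiating cells, had 48.2, 35.8 and 25.5 CPM in SW480 and 48.3, 38.3 and 22.6 in SW480-B. In SW480-gRNA-B-all it had 20.9, 10.95 and 12.5 CPM. Thus all 3 SW480-gRNA-B-all libraries were below the libraries of the other lines, which had nearly the same range.

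MXD1 did not pass in the main test in any comparison. Cells of SW480-gRNA-B-all had a log2 fold change of -1.31 against SW480 (SE 0.338, edgeR adjusted p = 0.05995) and -1.30 against SW480-B (SE 0.338, edgeR adjusted p = 0.0506), and in SW480-B it was 0.03 (SE 0.341, edgeR adjusted p = 0.977). In DESeq2 both of the first values passed (0.00674 and 0.00269). With RLE size factors the difference from SW480-B passed as well (edgeR adjusted p = 0.0495). It also passed without the filter (0.00559), without SW480-B replicate 3 (0.0222) and without SW480-gRNA-B-all replicate 1 (0.0337). The difference from SW480 passed without the filter (0.0285), in 1 fit of all libraries (0.0432) and without SW480 replicate 3 (0.0281). Neither passed with any other single library left out (edgeR adjusted p from 0.0721 to 0.203). Nor did either pass with SW480-gRNA-B-all replicates 2 and 3 summed (edgeR adjusted p = 0.195 against SW480). SNRNP27, which overlaps MXD1 on the same strand, had between 19.5 and 34.8 CPM and was highest in SW480-gRNA-B-all replicate 2, where MXD1 was lowest.

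MXD3 (ENSG00000213347, chr5:176728462-176739758, minus strand), the member of the family linked to S phase, had 9.05, 12.8 and 32.3 CPM in SW480, 10.2, 9.09 and 24.8 in SW480-B and 10.2, 27.6 and 30.7 in SW480-gRNA-B-all. Each line thus had libraries near 10 CPM and libraries of 24.8 CPM or more, and the lines overlapped. The log2 fold change of MXD3 was 0.33 (SE 0.573, edgeR adjusted p = 0.728) in SW480-gRNA-B-all and -0.25 (SE 0.562, edgeR adjusted p = 0.864) in SW480-B against SW480. RAB24, which overlaps MXD3 on the same strand, had 2.87 to 4.37 CPM, and PRELID1, which does so on the other strand, had 202 to 365 CPM.

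MXD4 (ENSG00000123933, chr4:2249159-2263836, minus strand) had 39.5, 15.9 and 5.49 CPM in SW480, 16.5, 10.2 and 9.51 in SW480-B and 11.5, 6.34 and 6.65 in SW480-gRNA-B-all. SW480 replicate 1 was the highest library and SW480 replicate 3 the lowest, so that the parental line enclosed both others. The log2 fold change of MXD4 was -1.32 (SE 0.664, edgeR adjusted p = 0.236) in SW480-gRNA-B-all and -0.71 (SE 0.617, edgeR adjusted p = 0.615) in SW480-B, and the first passed without SW480 replicate 3 (0.0450).

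MXI1 (ENSG00000119950, chr10:111967363-112047123, plus strand), the antagonist also called MXD2, had 12.7 to 22.4 CPM in SW480, 17.9 to 20.3 in SW480-B and 13.1 to 15.6 in SW480-gRNA-B-all. All SW480-gRNA-B-all libraries were below all SW480-B libraries (log2 fold change -0.46, SE 0.180), which did not pass (edgeR adjusted p = 0.161).

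MNT and MGA are the large antagonists. MNT (ENSG00000070444, chr17:2287367-2304398, minus strand), which is known to oppose MYC in cycling cells, had 25.6 to 36.7 CPM in SW480, 22.0 to 42.9 in SW480-B and 22.3 to 28.6 in SW480-gRNA-B-all. MGA (ENSG00000174197, chr15:41913332-42065279, plus strand), the scaffold of the Polycomb complex PRC1.6, had 81.8 to 101 CPM, 84.0 to 135 CPM and 82.0 to 108 CPM in the same order. Both genes overlapped between all lines, with log2 fold changes between -0.32 and 0.24 and edgeR adjusted p between 0.339 and 0.974.

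Levels were compared between genes per length, as CPM per kb of the Ensembl canonical transcript. MYC was the highest member in 9 of 9 libraries, from 33.5 to 215 CPM per kb. MAX was next in the mean of every line, with 32.7 ± 7.11 in SW480, 28.8 ± 6.32 in SW480-B and 24.7 ± 2.73 in SW480-gRNA-B-all (SD, n = 3), and in each line its range lay below that of MYC. MXD3 followed with means of 16.9, 13.8 and 21.4 CPM per kb, and its range overlapped with that of MAX in every line. The other 7 members had means of at most 8.44 CPM per kb, and MYCN was lowest in 7 of 9 libraries. Of the 9 pairs of neighbours in the order of means, 8 overlapped in SW480, all but MYC and MAX, and 6 in SW480-B. In SW480-gRNA-B-all only 3 overlapped (MAX and MXD3, MYCL and MXD1, MXD1 and MXD4). Apart from MYC and MAX, this order rests on the length used. With summed exon lengths MYC and MAX stayed first and second in the mean of every line, and MXD3 was 7th of 10 in SW480 and SW480-B and 4th in SW480-gRNA-B-all.

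By these levels MYC made up 67.7%, 57.2% and 41.6% of the network in SW480, 56.9%, 60.5% and 53.5% in SW480-B, and 54.7%, 31.7% and 30.3% in SW480-gRNA-B-all. The lowest shares were those of SW480-gRNA-B-all replicates 2 and 3, followed by SW480 replicate 3. The mean share of MYC was 55.5% ± 13.1 in SW480, 56.9% ± 3.51 in SW480-B and 38.9% ± 13.7 in SW480-gRNA-B-all (SD, n = 3), and the ranges of the last and SW480 overlapped. MXD1, MXD3, MXD4, MXI1, MNT and MGA together made up 23.8% ± 10.7 in SW480, 24.99% ± 5.39 in SW480-B and 37.5% ± 12.2 in SW480-gRNA-B-all (SD, n = 3). Within the MYC family, MYC held 89.5% to 97.5% in every library.

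**Figure D3:**
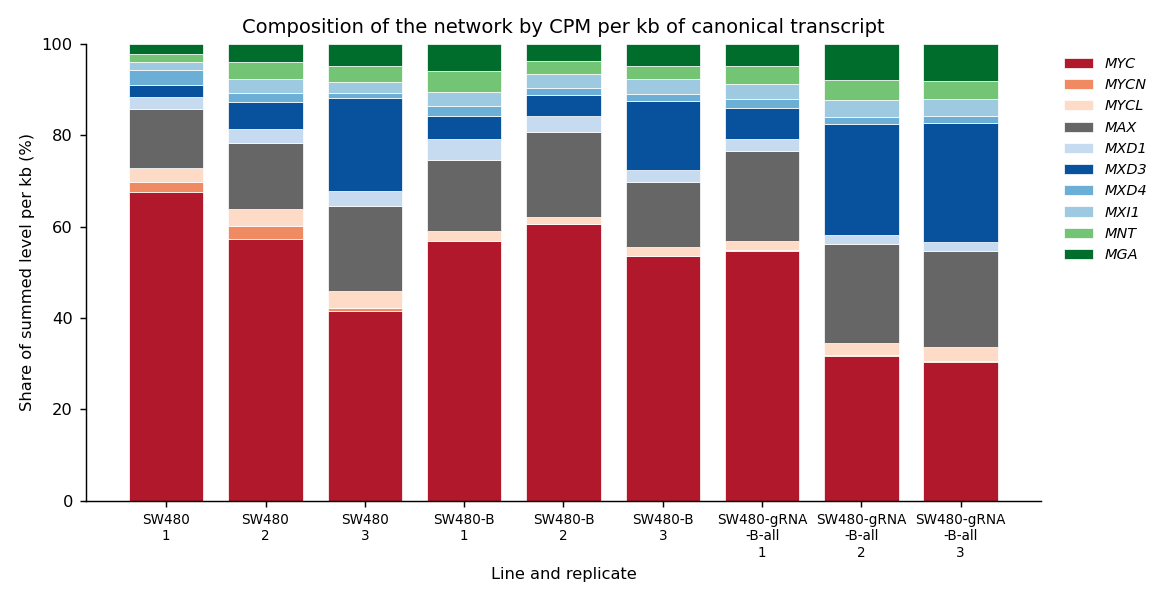
Composition of the network in each of the 9 libraries, as the percent of the summed CPM per kb of canonical transcript, stacked by gene. MYC fills between 30.3% and 67.7%, and the dark blue block of MXD3 is largest in SW480 replicate 3, SW480-B replicate 3 and SW480-gRNA-B-all replicates 2 and 3.

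The sum of the network per kb ranged from 148 to 318 in SW480, from 155 to 189 in SW480-B and from 106 to 142 in SW480-gRNA-B-all. With these canonical lengths, all 3 SW480-gRNA-B-all libraries were below the lowest library of either other line. That separation rests on the length used. With summed exon lengths, and in plain CPM, the sum in SW480-gRNA-B-all replicate 1 was above that in SW480 replicate 3. The antagonists' own sum overlapped between the lines, with 44.8 to 52.2 in SW480, 36.2 to 48.2 in SW480-B and 33.3 to 50.1 in SW480-gRNA-B-all. MYC over the sum of its antagonists was 4.72, 2.63 and 1.17 in SW480, 2.23, 3.12 and 1.77 in SW480-B, and 2.33, 0.725 and 0.669 in SW480-gRNA-B-all, so that the antagonists exceeded MYC in SW480-gRNA-B-all replicates 2 and 3. With the summed length of all exons in place of the canonical transcript, MYC exceeded them in 9 of 9 libraries, by 1.11-fold and 1.04-fold in these replicates.

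Within lines, the members differed in how much the 3 libraries spread. In SW480, the highest library exceeded the lowest 7.18-fold for MXD4, 7.02-fold for MYCN, 3.57-fold for MXD3 and 3.504-fold for MYC, beside a median of 1.65-fold over 14023 genes with at least 1 CPM on average. MGA, MNT and MAX stayed at 1.24-fold, 1.43-fold and 1.47-fold. In SW480-gRNA-B-all, MXD3 spread 3.00-fold and MYC 2.31-fold, beside a median of 1.26-fold, and 95.9% and 92.7% of genes spread less than these. In SW480-B, MXD3 spread 2.73-fold and MYC 1.36-fold, beside a median of 1.53-fold.

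Over 9 libraries, Pearson's r of log2 CPM with MYC was -0.81 for MXD3 and -0.25 for MGA, and between 0.56 (MYCN) and 0.93 (MXD1) for the other 7 members, as a description of libraries that share lines and scaling. SW480 replicate 3, SW480-B replicate 3 and SW480-gRNA-B-all replicates 2 and 3 had more MXD3 and less MYC than the rest of their line. In these 4 libraries MXD3 was 1.05 to 1.23 times MAX per kb, and in the other 5 it was 0.208 to 0.407 times MAX. With the summed length of all exons in place of the canonical transcript, MXD3 was below MAX everywhere (0.146 to 0.863 times). MXD3 exceeded MXD4 per kb 21.3-fold in SW480 replicate 3 and was 0.833 times MXD4 in SW480 replicate 1. Fragments on no gene made up 8.16%, 6.85% and 5.39% of SW480 replicates 1, 2 and 3, and 9.93%, 5.78% and 5.23% in SW480-B, so that replicate 3 had the lowest share in both lines. In SW480-gRNA-B-all this share was 5.22% to 5.59%, and its part in the result was not tested.

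**Figure D4:**
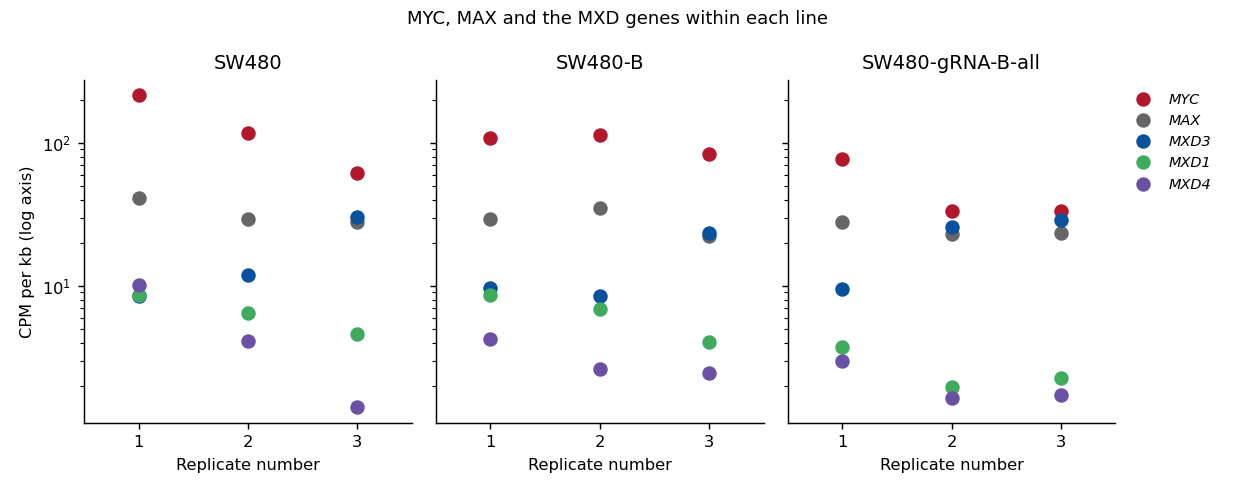
CPM per kb of MYC, MAX, MXD3, MXD1 and MXD4 (log axis) in replicates 1 to 3 of each line. Replicate numbers have no order. MXD3 lies at or above MAX in SW480 replicate 3, SW480-B replicate 3 and SW480-gRNA-B-all replicates 2 and 3, where MYC is lowest or level with the lowest of its line.

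Among 9899 genes with at least 10 CPM on average, those most like MYC by Pearson's r of log2 CPM over the same 9 libraries were RB1CC1 (0.993), RALGDS (0.993), XBP1 (0.991), PYCR1 (0.989) and SLTM (0.988). PYCR1, an enzyme of proline synthesis, had 521, 251 and 130 CPM in SW480, 175, 209 and 163 in SW480-B and 137, 58.1 and 56.2 in SW480-gRNA-B-all. XBP1, a factor of the unfolded protein response, had 286, 152 and 57.8 CPM in SW480 and 104, 38.4 and 36.3 in SW480-gRNA-B-all. None of the 5 passed in any of the 3 comparisons (edgeR adjusted p of at least 0.0819). The genes most like MAX were BRD2 (0.955), MBP (0.949) and SUPV3L1 (0.949).

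The genes around the network were taken from 7 lists. In SW480-gRNA-B-all against SW480, no gene passed in edgeR among 4 of the MLX branch, 16 MYC coactivators, 16 factors of MYC protein stability, 18 of the SIN3 and histone deacetylase corepressor and 14 of the PRC1.6 complex. At an unadjusted p under 0.05 they had 2, 3, 3, 5 and 2 genes, and DESeq2 called 1, 0, 2, 0 and 0, beside 28.4% and 15.6% of all genes. The medians of these lists lay between -0.27 and 0.02 on the log2 scale. TXNIP, also on the list of the MLX branch, had 0 CPM in every library under its matched identifier and was not tested. Its reads may lie under another identifier. MLXIPL, the glucose-responsive partner of MLX, had 52.6, 18.0 and 5.46 CPM in SW480 and 8.10, 3.54 and 2.77 in SW480-gRNA-B-all without passing (log2 fold change -2.41, edgeR adjusted p = 0.115). HUWE1, a ubiquitin ligase of MYC, had a mean of 425 CPM in SW480-gRNA-B-all and 892 CPM in SW480 (log2 fold change -1.08, edgeR adjusted p = 0.0642).

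Of 46 genes known as activated by MYC, 2 fell in SW480-gRNA-B-all against SW480, none rose, and 44 did not pass, beside 5.52% of all genes lower and 7.8% called in all. Of the 46, 37 were below 0, with a median of -0.24 on the log2 scale (-0.05 over all genes). At an unadjusted p under 0.05 there were 14 (28.4% of all genes), and DESeq2 called 5 (15.6% of all genes). FBL, the methyltransferase of ribosomal RNA, had 425, 380 and 346 CPM in SW480 and 229, 187 and 184 in SW480-gRNA-B-all (log2 fold change -0.94, SE 0.176, edgeR adjusted p = 0.0280). GART, an enzyme of purine synthesis, had 375, 312 and 296 CPM in SW480 and 216, 186 and 184 in SW480-gRNA-B-all (log2 fold change -0.75, SE 0.172, edgeR adjusted p = 0.0449). In SW480-B, where MYC itself overlapped with SW480, none of the 46 passed in edgeR, beside 1.34% of all genes. There, 35 of 46 were below 0, with a median of -0.13. An unadjusted p under 0.05 was found for 3 (15.8% of all genes), and DESeq2 called 1 (5.62% of all genes). GART was also lower when SW480-gRNA-B-all was set against SW480-B (log2 fold change -0.75, SE 0.161, edgeR adjusted p = 0.0262), as the only one of the 46.

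Of 17 tested genes known as repressed by MYC, 1 rose, 2 fell and 14 did not pass in SW480-gRNA-B-all against SW480, beside 7.8% of all genes called (5.52% lower), with a median of -0.28. NDRG2, a growth-restraining gene, rose from 1.59 to 2.55 CPM in SW480 to between 4.00 and 8.78 CPM (log2 fold change 1.80, SE 0.402, edgeR adjusted p = 0.0426). The inhibitor of cyclin-dependent kinases CDKN1C had 7.99 to 14.6 CPM in SW480 and 2.41 to 3.31 CPM in SW480-gRNA-B-all (log2 fold change -1.97, SE 0.320, edgeR adjusted p = 0.0202), and the chaperone gene CLU had 262 to 378 CPM and 103 to 155 CPM (log2 fold change -1.26, SE 0.228, edgeR adjusted p = 0.0261). The genes of this list that passed therefore went both ways. None of the 17 passed in SW480-B against SW480 in edgeR or DESeq2, beside 1.34% and 5.62% of all genes, and 2 had an unadjusted p under 0.05 (15.8% of all genes).

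Between the BASP1-expressing lines, 1 gene of the MYC-repressed list was higher in SW480-gRNA-B-all and 4 were lower, out of 17 tested, beside 8.76% of all genes called. NDRG2 was higher (log2 fold change 1.68, edgeR adjusted p = 0.0263), and CDKN1C, CLU, FTH1 and TSC22D1 were lower by -1.63, -1.25, -1.24 and -0.85 on the log2 scale (edgeR adjusted p between 0.0206 and 0.0370). FTH1, the ferritin heavy chain, had 2058 to 4360 CPM in SW480-B and 1185 to 1535 in SW480-gRNA-B-all. RYBP, a subunit of PRC1.6 beside MGA, had 44.7 to 50.1 CPM in SW480-B and 80.5 to 84.6 in SW480-gRNA-B-all, and was higher there (log2 fold change 0.80, SE 0.143, edgeR adjusted p = 0.0135). RYBP was the only gene of the 5 lists of partners and cofactors to pass in any comparison.

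Of these calls between SW480-gRNA-B-all and SW480, none remained without SW480 replicate 2 or without any 1 SW480-gRNA-B-all library. Genes called in all fell there from 1256 to between 8 and 178. Without SW480 replicate 3 the calls over the 7 lists went from 5 to 21, and those over all genes from 1256 to 3519. The 7 calls between the BASP1-expressing lines went to 0 without SW480-gRNA-B-all replicate 2 or without replicate 3, to 4 without SW480-B replicate 1, to 2 without SW480-B replicate 2 and to 14 without SW480-B replicate 3. Genes called in all went from 1388 to 447, 421, 813, 614 and 2305 in the same order. Of 8 tested colon epithelium markers, CDX2, VIL1 and CDH17 fell against SW480 in SW480-gRNA-B-all, beside 7.8% of all genes called. In SW480-B, VIL1 and CDH17 fell out of 9 tested, beside 1.34% of all genes called. CDX2 had 30.4 to 41.9 CPM in SW480 and 2.37 to 5.52 in SW480-gRNA-B-all. In SW480-B it was higher than in SW480, at 58.2 to 67.4 CPM, without passing. The part of these markers in the results on the network was not tested.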

How the data were processed

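The authors sequenced poly(A) RNA of 9 samples from stranded TruSeq libraries on a NovaSeq, aligned the reads to GRCh37, and deposited whole-number counts per Ensembl gene and library, not normalized. Their counter and its strand setting are not given in the sources used here. Reads of overlapping genes may thus have been assigned to the wrong gene, or set aside as lying on more than 1 gene. The lines of the files that name no gene (5.22% to 9.93% of a library on no gene, 3.09% to 3.44% on more than 1) were kept out of all totals and tests. The libraries' metrics files were not used.

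Libraries were grouped by title. Lines were compared in pairs, 6 libraries to a fit, with edgeR 4.0.16 in R 4.3.3: filterByExpr (least count 10, least total 15), TMM, glmQLFit (robust) and glmQLFTest, with Benjamini-Hochberg adjustment over all genes tested. A gene passed at an adjusted p under 0.05 (two-sided), of any size. Standard errors are the log2 fold change over the square root of F. CPM uses TMM factors of all 9 libraries. The test was tried on simulated counts. Symbols, positions and lengths came from GENCODE v44 lifted to GRCh37 (55665 of 63677 identifiers matched), and promoters from RefSeq. Likeness used log2(CPM + 0.5).

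All 10 members were named. Of each list and comparison, up to 4 passing genes per direction, the genes overlapping a member and those most like MYC and MAX were named by rule, and MLXIPL, HUWE1, COL3A1 and CD68 after their values were seen. The members and lists were chosen with earlier results of these data known.

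Alternatives were RLE, no filter, at least 1 CPM in 3 libraries, all 9 libraries in 1 fit, a replicate block, DESeq2 1.42.0, each library left out, a 2-fold limit, and SW480-gRNA-B-all replicates 2 and 3 summed. For pairing, deviations of same-numbered libraries from their line's mean correlated at 0.308, 0.411 and 0.401 between SW480-B and SW480, all above 0.1, and the block is given there where it changes a call. What the numbers mark is not stated, so that this pairing is inferred from the same data. Limits of 3 counts cover counting error only, and standard errors reflect the spread between libraries.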

Additional observations from a re-analysis of the deposited data

How the results depend on the processing

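The number of members passing in SW480-gRNA-B-all against SW480 was 2, and became 4 with the replicate block, 4 in DESeq2 and 0 with SW480-gRNA-B-all replicates 2 and 3 summed, and 0 to 5 with 1 library left out. Genes called in all went from 1256 to 1347, 3125, 97 and between 8 and 3519 in the same order, and to 1930 in 1 fit of all libraries. In SW480-B against SW480 the number of members went from 0 to 1 without the filter, 2 in 1 fit of all libraries, 1 with the block, 2 in DESeq2, and 0 to 2 with 1 library left out. All calls went from 216 to 738, 488, 320, 1132 and between 0 and 925 in the same order. Between the BASP1-expressing lines the number of members went from 0 to 1 with RLE, 2 without the filter, 2 with the block, 2 in DESeq2, and 0 to 2 with 1 library left out. All calls went from 1388 to 1396, 1895, 1978, 2305 and between 421 and 2305 in the same order, and to 447 with both replicates summed. Listed genes passing were 5 in the first comparison, and 8 in 1 fit of all libraries, 9 with the block, 14 in DESeq2, 0 with both replicates summed, 3 above 2-fold, and 0 to 21 with 1 library left out. In the second they were 0, and 1 with the block, 1 in DESeq2 and 0 to 3 with 1 library left out. In the third they were 7, and 13 with the block, 11 in DESeq2, 0 with both summed, 4 above 2-fold and 0 to 14 with 1 library left out. With the block MYC and MXD1 passed in SW480-gRNA-B-all against SW480 (edgeR adjusted p = 0.0295 and 0.0287) and against SW480-B (0.0159 and 0.00777), but same-numbered libraries did not all correlate in these comparisons (down to -0.01 and -0.10).

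In SW480-B against SW480, small log2 fold changes that had not passed turned sign: MNT to -0.0068 in 1 fit of all libraries and to -0.0136 with the block, and MXD1 to -0.0060 in 1 fit of all libraries. With 1 library left out the ranges were -0.68 to 0.21 for MYC, -0.30 to 0.0357 for MAX, -0.23 to 0.28 for MXD1, -0.88 to 0.47 for MXD3, -1.16 to 0.20 for MXD4, -0.0457 to 0.33 for MXI1, -0.29 to 0.22 for MNT and -0.0071 to 0.36 for MGA. Between the BASP1-expressing lines they were -0.50 to 0.0196 for MNT and -0.22 to 0.16 for MGA. With summed exon lengths, an alternative chosen after seeing the data, the mean share of MYC was 61.7% in SW480, 64.2% in SW480-B and 48.5% in SW480-gRNA-B-all. Over all settings and comparisons, 324 values of the members kept their direction and their side of the threshold. Another 18 turned sign, 27 came to pass and 10 no longer passed, and not each of these is given. MYCN could not be tested between the BASP1-expressing lines at 1 CPM in 3 libraries. Lone libraries are assumed to vary as their group, and fits with fewer libraries have less power; other causes were not tested.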

Other observations

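Of 14 genes near MYC on chromosome 8, 10 could be tested between SW480-gRNA-B-all and SW480, and 1 fell in the former, beside 5.52% of all genes. MTSS1, which binds actin and membranes, had 25.8, 36.6 and 33.4 CPM in SW480, 43.3, 46.5 and 28.2 in SW480-B and 7.62, 9.68 and 10.3 in SW480-gRNA-B-all (log2 fold change -1.80, SE 0.223, edgeR adjusted p = 0.0105). None of the 10 passed in SW480-B against SW480 in edgeR or DESeq2, and none had an unadjusted p under 0.05, beside 1.34%, 5.62% and 15.8% of all genes. Between the BASP1-expressing lines, 3 of 10 tested, MTSS1, TRIB1 and SQLE, were lower in SW480-gRNA-B-all, beside 8.76% of all genes called in either direction. TRIB1, a pseudokinase, had 169, 201 and 197 CPM in SW480-B and 55.2, 51.6 and 48.3 in SW480-gRNA-B-all (log2 fold change -1.87, SE 0.154, edgeR adjusted p = 0.000994). SQLE, an enzyme of sterol synthesis, had 116, 173 and 96.5 CPM and 51.1, 69.3 and 63.9 CPM in the same order (log2 fold change -1.07, SE 0.238, edgeR adjusted p = 0.0295). With each library left out in turn, TRIB1 and MTSS1 passed in 6 of 6 fits between the BASP1-expressing lines, MTSS1 passed in 3 of 6 against SW480 (edgeR adjusted p up to 0.0680), and SQLE passed in 1 of 6 (up to 0.105).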
